A study of Mus musculus with 14 samples.

Results

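Described here are 6 of the 56414 genes in the table of this series: Abca12, Rasgrp1, Sox13, Cbr2, Gm5148 and D13Ertd608e. They were picked by name, for their differences between NAM-treated and untreated AT3 tumors, so that their values in AT3 tumors are a description and no test is given for them there. Mouse mammary tumors of 2 models were profiled by bulk RNA-seq of polyA RNA, with 1 library per tumor. All mice were C57Bl/6. The M/D model covers 4 untreated and 4 NAM-treated tumors of females that carried, from 6 to 9 weeks of age, a slow-release pellet of 50 mg medroxyprogesterone acetate (MPA, a progestin) and were gavaged with 7,12-dimethylbenz[a]anthracene (DMBA, a carcinogen). The AT3 model covers 3 untreated and 3 NAM-treated tumors grown from a subcutaneous injection of AT3 cells, a single mammary carcinoma line, so that its tumors are not independent cancers. The labels give no age for the hosts of AT3 tumors. Mice of both models were randomized at a tumor area of 0.25 cm2, and NAM (nicotinamide, a form of vitamin B3 from which cells make NAD) was given at 0.5% in the water over 10 days. NAM-treated M/D tumor 1 came from experiment 2 and the other 7 M/D tumors from experiment 1, whereas all 6 AT3 tumors came from experiment 3.

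The members have different known roles. Abca12 is an ATP-binding cassette transporter that loads lipids into the lamellar granules of keratinocytes, from which the lipid barrier of the skin is built. Rasgrp1 is an exchange factor that turns on Ras in lymphocytes when diacylglycerol is made below the antigen receptor. Sox13 is a transcription factor of the SoxD group, with Sox5 and Sox6, and is used in the development of gamma-delta T cells. Cbr2 is a short-chain dehydrogenase that reduces carbonyl groups, abundant in the club cells of the mouse lung and found in resident macrophages. Gm5148 is a predicted gene and D13Ertd608e a locus named from an expressed sequence tag, and no role is given for either here. In bulk tumors, fewer cells of a type and less RNA per cell cannot be told apart.

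On mm10, Abca12 (GSMG0001726) lies at chr1:71243090-71414912, Rasgrp1 (GSMG0023366) at chr2:117279994-117343003, Sox13 (GSMG0002101) at chr1:133382301-133424212, Cbr2 (GSMG0007754) at chr11:120729485-120732021, Gm5148 (GSMG0025333) at chr3:37714190-37724492 and D13Ertd608e (GSMG0054806) at chr13:119845343-119846692. Abca12 and Sox13 share a chromosome but not a neighborhood. The sequences shown are the 250 bases before the RefSeq start of the 3 members that were higher with NAM in AT3 tumors and of Cbr2, the most abundant member that was lower, so that the starts of genes on both sides of the comparison can be read beside each other. They come from GRCm38.p6, minus strand, at chr1:71414911-71415160 for Abca12, chr2:117342878-117343127 for Rasgrp1, chr1:133424213-133424462 for Sox13 and chr11:120732022-120732271 for Cbr2, with CpG dinucleotides in capitals.
Abca12: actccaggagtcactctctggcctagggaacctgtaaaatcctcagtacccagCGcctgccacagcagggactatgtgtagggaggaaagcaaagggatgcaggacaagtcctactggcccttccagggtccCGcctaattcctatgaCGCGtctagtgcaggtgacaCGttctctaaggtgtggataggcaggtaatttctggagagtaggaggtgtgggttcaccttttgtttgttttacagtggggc
Rasgrp1: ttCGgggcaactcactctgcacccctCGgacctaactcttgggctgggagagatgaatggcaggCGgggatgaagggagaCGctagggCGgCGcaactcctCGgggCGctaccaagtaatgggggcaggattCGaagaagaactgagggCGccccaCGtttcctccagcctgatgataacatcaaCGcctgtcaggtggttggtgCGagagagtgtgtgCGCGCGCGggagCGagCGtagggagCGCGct
Sox13: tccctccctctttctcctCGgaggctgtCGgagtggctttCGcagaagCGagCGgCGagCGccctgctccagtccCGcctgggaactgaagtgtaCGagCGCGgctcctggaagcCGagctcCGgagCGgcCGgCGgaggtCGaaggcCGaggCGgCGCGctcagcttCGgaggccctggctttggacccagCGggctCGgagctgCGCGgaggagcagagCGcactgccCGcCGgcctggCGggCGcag
Cbr2: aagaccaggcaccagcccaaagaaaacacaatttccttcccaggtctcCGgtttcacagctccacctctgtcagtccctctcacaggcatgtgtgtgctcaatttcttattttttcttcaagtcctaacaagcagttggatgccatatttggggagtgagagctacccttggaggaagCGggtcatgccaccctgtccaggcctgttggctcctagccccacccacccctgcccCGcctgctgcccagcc

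The 3 members that were higher with NAM did not share a type of promoter. Sox13 has 31 CpG dinucleotides in this window and Rasgrp1 21, more than 94.8% and 83.7% of 32851 mouse promoters of the same length. Abca12 has 5, more than 44.4% of promoters, and Cbr2 has 3, more than 29%. Gm5148 has 13, and D13Ertd608e was not matched to a RefSeq promoter. By the deposited coordinates, Rasgrp1 and Gm5148 begin upstream of their RefSeq starts, so that a large part of their windows lies inside these genes. Both strands were searched for 5 short motifs. A GC box (GGGCGG, in 32.7% of all promoters of this length) was found in Rasgrp1 and in Gm5148. That of Gm5148, 17 bases before the RefSeq start, falls inside the gene by the deposited coordinates. A SOX element (ACAAT, in 27.7%) was found in Cbr2. Neither the TATA box (TATAAA, in 12.4%) nor the CCAAT box (in 33.8%) nor the AP-1 element (TGANTCA, in 6.75%) was found in any of the 5 windows. No match says only that the letters are not in this window, and the hits did not overlap each other. No motif was shared by the 3 members that were higher.

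Total reads recovered from the table were 50391585 to 84178009 per M/D tumor and 40936868 to 75527467 per AT3 tumor. The values are normalized counts, that is reads divided by a size factor of the tumor, and the 2 models had been normalized apart, so that they are compared within a model. Differences are NAM minus untreated on log2(normalized count + 1), a scale that understates the change of low genes. A gene was called at an unadjusted p of at most 0.05 with a fold change of at least 1.5, by limma. In AT3 tumors 4458 of 19281 features were called (23.1%, 12.2% higher and 10.9% lower, with 2020 higher and 2506 lower after upper-quartile rescaling), and in M/D tumors 1350 of 21700 (6.22%, 3.03% higher and 3.19% lower, with 879 higher and 545 lower after upper-quartile rescaling). At an adjusted p of at most 0.05 (Benjamini-Hochberg, limma) 1 feature was called in each model, 0.00519% in AT3 and 0.00461% in M/D tumors. The study counts its samples as mice, and p-values measure the spread between tumors.

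In AT3 tumors, Rasgrp1, Abca12 and Sox13 were higher in every NAM-treated tumor than in any untreated tumor, and Cbr2, Gm5148 and D13Ertd608e were lower. The groups of 22.6% of all features tested did not overlap either, and since this comparison chose the members, nothing is read from it. By the size of their moderated t, the members took places 3, 4, 7, 8, 9 and 10 among 15758 tested genes with a symbol. By fold change they were further apart, with D13Ertd608e in place 1, Rasgrp1 in place 44, Abca12 in place 165, Sox13 in place 373, Gm5148 in place 633 and Cbr2 in place 1895.

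**Figure D1:**
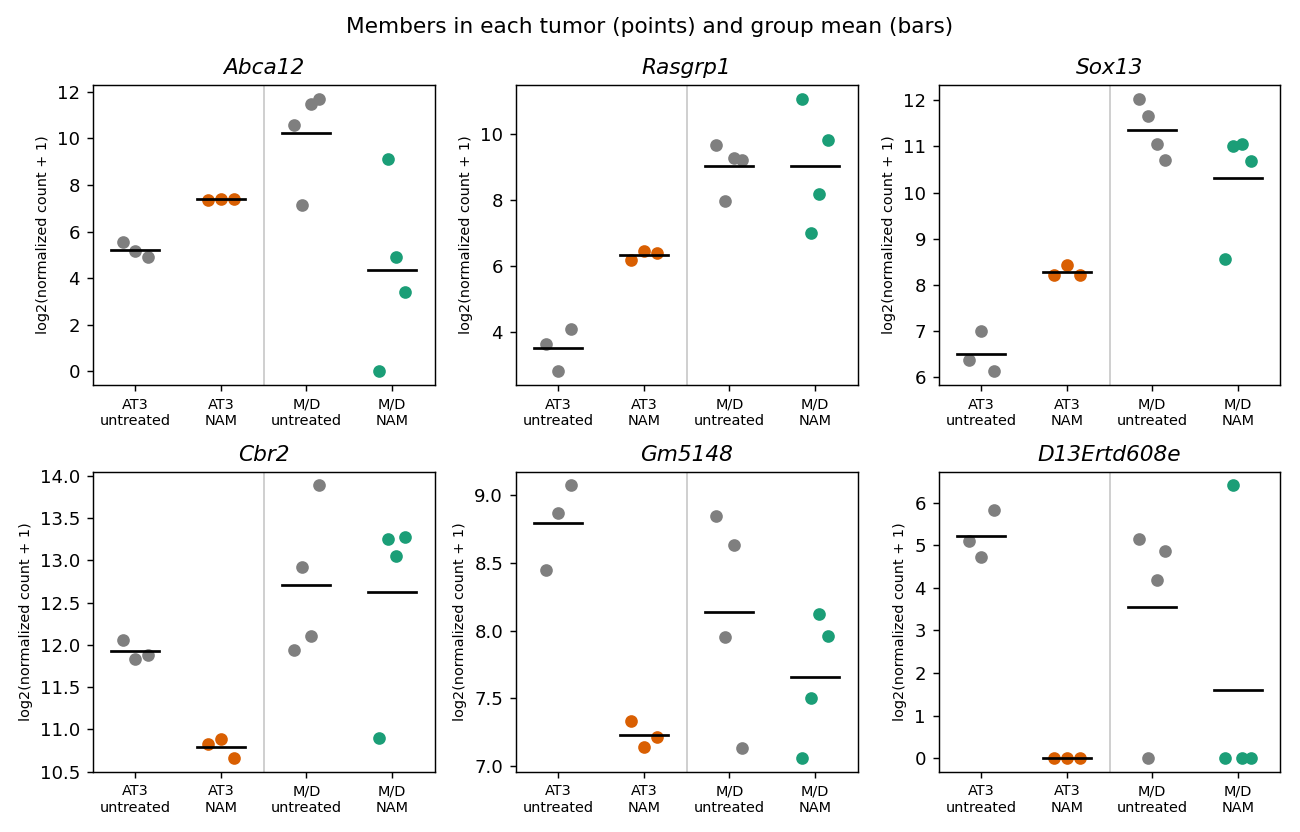
Normalized counts of the 6 members on a log2(value + 1) scale, with a point for each tumor and a bar at the mean of each group (3 untreated and 3 NAM-treated AT3 tumors, 4 untreated and 4 NAM-treated M/D tumors). The AT3 groups are apart for all 6 members, whereas the M/D groups overlap for all 6.

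Abca12 stood at normalized counts of 46.4, 34.5 and 29.3 in the untreated AT3 tumors and at 164, 165.6 and 169.4 in the NAM-treated ones. All NAM-treated tumors were above all untreated tumors, and lay very close to each other. The means were 36.7 ± 8.75 and 166.3 ± 2.74 (SD, n = 3 each), a ratio of 4.53 and a log2 difference of 2.17 (SE 0.33). With 135 to 205 reads per NAM-treated tumor, counting alone gives a coefficient of variation of 7.74%, while the one observed between these tumors was 1.65%, so that the spread of this gene was smaller than counting error. Its place among the members rests in part on that spread, since the moderated t divides by it.

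Rasgrp1 was at 11.6, 6.09 and 16.3 in untreated AT3 tumors (6 to 20 reads) and at 71.7, 87.5 and 83.4 in NAM-treated tumors (59 to 101 reads). The 2 groups were far apart, but the untreated level was close to the lower end of what was tested. Means were 11.3 ± 5.1 and 80.9 ± 8.21 (SD, n = 3 each), with a ratio of 7.14 and a log2 difference of 2.82 (SE 0.48). Counting error was 33.7% in the untreated group, beside an observed coefficient of variation of 45%.

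For Sox13 the untreated AT3 tumors had 81.2, 125.9 and 68.4 and the NAM-treated tumors 292.8, 342.4 and 293.3. The highest untreated tumor, tumor 2, remained far below the lowest treated tumor. The ratio of the means (91.8 ± 30.2 and 309.5 ± 28.5, SD, n = 3 each) was 3.37 and the log2 difference 1.79 (SE 0.31).

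Cbr2 was the most abundant member, at 4266, 3640 and 3755 in untreated and 1810, 1897 and 1615 in NAM-treated AT3 tumors. No value of one group reached the other, and both groups were tight. The untreated mean (3887 ± 333.5, SD, n = 3) was 2.19 times the NAM-treated mean (1774 ± 144.3, SD, n = 3), and the log2 difference was -1.13 (SE 0.19), the smallest of the 6. With 1490 to 4613 reads per tumor, counting error was 1.67% and 2.37% in the groups, below the observed coefficients of variation of 8.58% and 8.13%.

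Gm5148 was at 347.8, 465 and 537.2 in untreated AT3 tumors and at 160.4, 140.2 and 147.9 in NAM-treated tumors. All treated tumors were below all untreated tumors. The means were 450 ± 95.6 and 149.5 ± 10.2 (SD, n = 3 each), 3.01-fold apart, with a log2 difference of -1.56 (SE 0.26).

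D13Ertd608e had 33.3, 25.4 and 56.2 in untreated AT3 tumors, from 23, 25 and 69 reads, and 0 reads in all 3 NAM-treated tumors. A count of 0 over the group allows up to 3 reads, or a mean of 0.994, and the untreated mean of 38.3 was 38.5-fold this floor. That figure takes the untreated mean as exact and leaves out its spread between tumors (SD 16, n = 3), so that it is a description. The fitted log2 difference of -5.22 (SE 0.77) depends on the pseudocount and is no bound. The longest transcript of D13Ertd608e, of 704 bases, matches another annotated gene, Gm21762, at 99.9% identity over its whole length. Gm21762 is not named in the table, and reads of the 2 copies may have been split or dropped in counting, so that the level of D13Ertd608e is uncertain. None of the other members had a second gene matching at 90% identity over 50% of its transcript. Gm5148 had short matches at this identity to 26 other genes, the longest of 183 bases (7.1% of its transcript). The part of such reads in its count was not tested.

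Leaving out each AT3 tumor in turn left the log2 difference at 2.03 to 2.35 for Abca12, 2.47 to 3.11 for Rasgrp1, 1.60 to 2.04 for Sox13, -1.18 to -1.06 for Cbr2, -1.74 to -1.42 for Gm5148 and -5.47 to -4.91 for D13Ertd608e. Since the AT3 groups of no member overlapped, leaving out a tumor could not turn a sign, and nothing is read from this.

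Levels per length placed the members far apart. In RPKM (reads scaled to the length of the longest GENCODE transcript and to the total reads of the tumor), untreated AT3 tumors had 60.7 ± 5.69 for Cbr2, 3.06 ± 0.815 for Gm5148, 0.925 ± 0.323 for D13Ertd608e, 0.446 ± 0.213 for Sox13, 0.0696 ± 0.0152 for Abca12 and 0.0364 ± 0.0136 for Rasgrp1 (SD, n = 3). The 3 untreated tumors of each member did not overlap with those of its neighbors in this order, down to Abca12 (0.0522 to 0.0801) and Rasgrp1 (0.0236 to 0.0506). By this measure, the 3 members that were higher with NAM were the 3 with the lowest untreated level per length. Reads were counted on constitutive regions only, while the length is that of the longest transcript. The order between genes is therefore approximate. On the same scale untreated M/D tumors had 12.9 ± 5.77 for Sox13, 3.52 ± 2.48 for Abca12 and 1.8 ± 0.8 for Rasgrp1 (SD, n = 4), so that their means were higher there than in either AT3 group (at most 1.79 ± 0.208 for Sox13, 0.388 ± 0.0257 for Abca12 and 0.331 ± 0.0479 for Rasgrp1, with NAM, n = 3). Cbr2 (113 ± 64.2) and Gm5148 (2.05 ± 1.05) were closer to their AT3 levels.

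In AT3 tumors the difference with NAM followed transcript length over all genes, with a Spearman coefficient of 0.589 over 16429 genes, against -0.04 over 18460 genes in M/D tumors. Genes are not independent replicates and the coefficient is given without a test. The members are therefore given beside genes of similar length, and with the trend removed. Abca12 has a longest transcript of 9137 bases, Rasgrp1 of 5229, Sox13 of 3693, Gm5148 of 2579, Cbr2 of 1110 and D13Ertd608e of 704, so that the 3 members that were higher are the 3 longest.

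**Figure D2:**
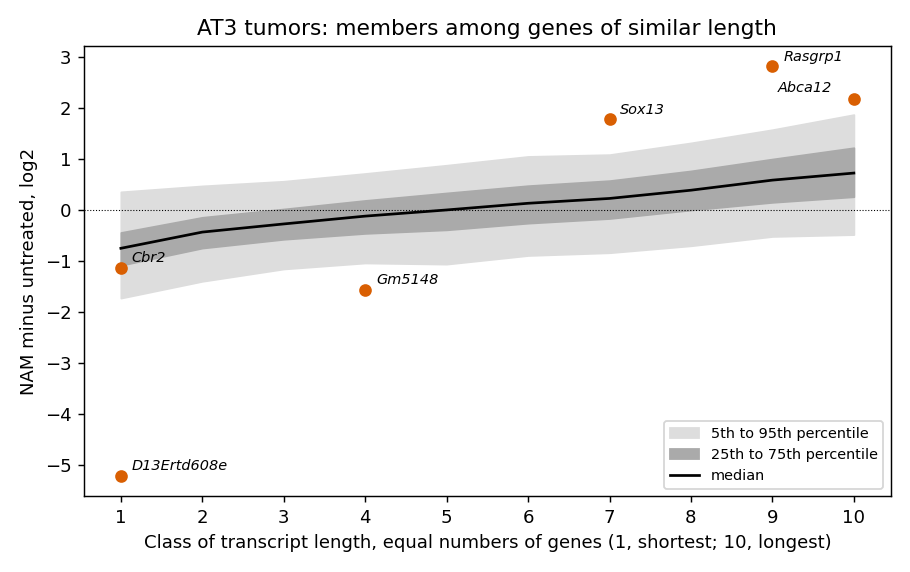
Log2 difference between NAM-treated and untreated AT3 tumors against transcript length in 10 classes of equal size, with 1643 genes in the classes of the members. The line is the median of a class, the bands run from the 25th to the 75th and from the 5th to the 95th percentile, and the points are the members. The median goes from -0.75 among the shortest genes to 0.72 among the longest, and Cbr2 is the only member inside the wider band.

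Tested genes were cut into 10 classes of transcript length. Among the 1643 genes of its class, Abca12 (2.17) stood above 97.3%, with a median of 0.72 and 40.3% of the class called higher. Rasgrp1 (2.82) was above every other gene of its length class, where the median was 0.59. Sox13 (1.79) was above 99.4% of a class with a median of 0.23, and 9 genes were above it. Long genes were thus often higher with NAM, and these members were near or at the top of genes of their own length. They were picked for these same differences, so that nothing is read from their places.

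Cbr2 differed from the others in this respect. Its log2 difference of -1.13 lay above 21.5% of the genes in the shortest class, where the median was -0.75 and 39.8% of genes were called lower. When the trend of each tumor with length and GC content was removed by a spline, Cbr2 went from -1.13 to -0.60, above 10.2% of its length class. Gm5148 (-1.56) was above only 1.7% of a class with a median of -0.12, and D13Ertd608e was the lowest gene of the shortest class. With the trend removed, Abca12 was at 1.47, Rasgrp1 at 2.37, Sox13 at 1.44, Gm5148 at -1.34 and D13Ertd608e at -4.40, all in the same direction as without it.

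In M/D tumors, which did not choose the members, 1 of the 6 was called, Abca12, beside 6.22% of all features (3.03% higher and 3.19% lower). Abca12 was lower with NAM there, opposite to AT3 tumors. The groups of all 6 members overlapped in M/D tumors, where those of 4.43% of features did not. At an adjusted p of at most 0.05 (limma) 0 members were called, beside 0.00461% of features. Without adjustment or a fold threshold, p of at most 0.05 was reached by 1 member, beside 6.71% of features. By edgeR with the call thresholds 0 members were called, beside 7.54% of features. With 4 tumors against 4, the smallest p of an exact permutation test is 0.0286.

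**Figure D3:**
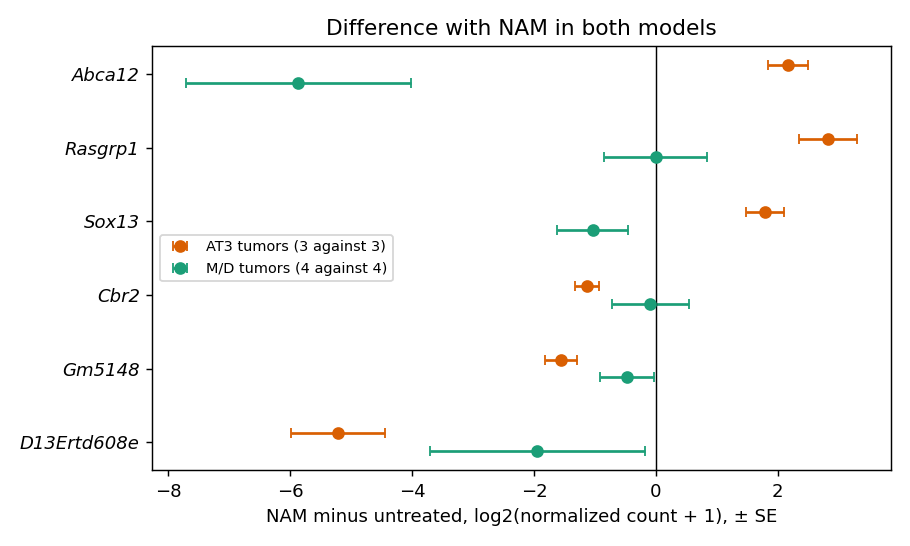
Difference between NAM-treated and untreated tumors on log2(normalized count + 1), with its SE, for each member in AT3 tumors (3 against 3) and in M/D tumors (4 against 4). Abca12 is at 2.17 in AT3 and -5.87 in M/D tumors, and the M/D values of Rasgrp1 and Cbr2 lie at 0 within their error.

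Abca12 had normalized counts of 1518, 140.2, 2869 and 3341 in untreated M/D tumors 1 to 4 and of 0, 546.8, 29.5 and 9.63 in NAM-treated tumors 1 to 4. The groups overlapped because NAM-treated tumor 2 was above untreated tumor 2. The means were 1967 ± 1442 and 146.5 ± 267.2 (SD, n = 4 each), the log2 difference -5.87 (SE 1.84, 95% interval -10.08 to -1.65) and the limma p 0.0122, or 0.734 after adjustment. An exact two-sided permutation test gave p = 0.0571, and edgeR p = 0.0665. Without NAM-treated tumor 1, that is within experiment 1, the difference was -4.41, and without NAM-treated tumor 2 it was -7.45.

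Keratinocyte markers moved with Abca12 across M/D tumors. The summed normalized counts of 13 such markers, among them Krt1, Krt10 and Lor of the cornified layers, were 533400, 91140, 1080000 and 1926000 in untreated tumors 1 to 4 and 1719, 657300, 83260 and 245300 in NAM-treated tumors 1 to 4. The order of the untreated tumors was that of Abca12, and of the treated tumors the same 2 were highest and lowest. Of the 13 markers 3 were called lower, beside 3.19% of all features. They were Krt1 (log2 difference -9.34, SE 3.17), Krt10 (-6.72, SE 2.56) and Lor (-7.40, SE 2.82). The median over the list was -6.22, beside 0.012 over all features. The part of these cells in the Abca12 difference was not tested. In AT3 tumors the sum was 19700 to 35260 in untreated and 11820 to 20350 in NAM-treated tumors, and 3 of the 9 markers tested were called lower (beside 10.9% of all features) and 0 higher. Their median was -0.715, against 2.17 for Abca12. With the length trend removed these were -0.341 and 1.47, and of the called markers Sbsn was at -0.92, Krt14 at -0.48 and Calml3 at -0.34, the last 2 under the fold threshold. Of the 13 markers 3 were at 0 in all untreated and 2 in all NAM-treated AT3 tumors. Krt14 (means of 14956 untreated and 8492 with NAM), Krt5 (4476 and 2639) and Krt15 (3080 and 2448) held most of the AT3 sum. Of the cornified markers named above, Krt1 was at 9.04 and 25.3, Lor at 23.7 and 21.6 and Krt10 at 357.8 and 190.7. The paper counts mammary epithelium among the cells that express KRT5, so that the AT3 sum is not particular to skin keratinocytes.

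**Figure D4:**
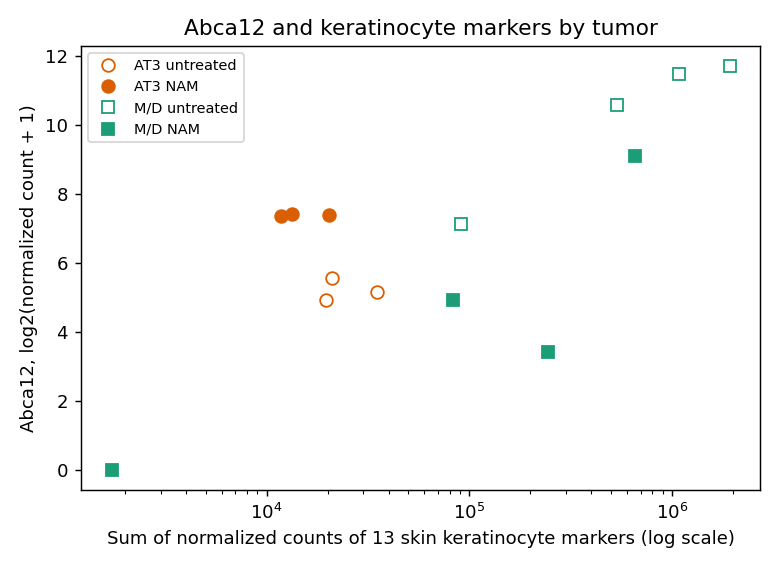
Abca12 on log2(normalized count + 1) against the summed normalized counts of 13 skin keratinocyte markers on a log axis, with a point for each of the 14 tumors. M/D tumors run from the lower left (NAM-treated tumor 1, 0 and 1719) to the upper right (untreated tumor 4, 3341 and 1926000), while NAM-treated AT3 tumors have more Abca12 than untreated ones at marker sums that are mostly lower. The 2 models were normalized apart, and most of the AT3 sums came from Krt14, Krt5 and Krt15.

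The genes most like Abca12 over the 8 M/D tumors, out of 17605 with a symbol, were Pla2g4f, a cytosolic phospholipase A2 (Pearson r = 0.993), and Il1rl2, the receptor of IL-36 cytokines (r = 0.992). Over the 6 AT3 tumors their coefficients with Abca12 were 0.246 and 0.637. All these coefficients are descriptions, chosen as the highest of many.

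Rasgrp1 was at 806, 247.7, 614.3 and 585.9 in untreated M/D tumors and at 2129, 126.7, 289 and 900.1 in NAM-treated tumors. The treated tumors held both the highest and the lowest value. The log2 difference was -0.01 (SE 0.84, 95% interval -1.92 to 1.91, limma p = 0.993), and the exact permutation p was 1. The interval is wide, and differences of these sizes in either direction were not detectable with this spread. The sign turned to 0.57 with edgeR and 0.60 with DESeq2, and ranged from -0.69 without NAM-treated tumor 1 to 0.66 without NAM-treated tumor 2. NAM-treated tumor 1, the highest for Rasgrp1, also had a summed level of 213200 for 8 B cell markers, against 1070 to 5344 in the other M/D tumors, and the part of B cells in its Rasgrp1 value was not tested.

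T cell markers were mostly above 0 in AT3 tumors, but within the spread between tumors. The log2 difference was above 0 for 11 of 12 such markers, with a median of 0.379, or 0.658 with the length trend removed. Their summed counts were 437.6 to 2431 in untreated and 656.7 to 2087 in NAM-treated tumors, with 0 of 12 called (beside 23.1% of all features). For 8 B cell markers the sums were 289 to 331 and 269.1 to 337.8, and 2 of the 7 tested were called lower (beside 10.9% of all features). The part of these cells in the Rasgrp1 difference was not tested.

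Sox13 was at 4210, 3217, 2138 and 1669 in untreated M/D tumors and at 374.3, 2071, 2123 and 1642 in NAM-treated tumors. Only NAM-treated tumor 1 stood well below the others, and this tumor also had the lowest sum of 10 epithelial markers (8176, against 117500 to 396700 in the other M/D tumors), whose part in the Sox13 value was not tested. The means were 2809 ± 1137 and 1553 ± 814.6 (SD, n = 4 each), with a log2 difference of -1.04 (SE 0.58, 95% interval -2.37 to 0.29, limma p = 0.111), and p = 0.114 in the exact permutation test. Without that tumor the difference was -0.45.

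Cbr2 was at 3928, 7748, 4409 and 15160 in untreated and 1909, 9764, 8521 and 9902 in NAM-treated M/D tumors. Again NAM-treated tumor 1 was the lowest, and the remaining treated tumors were within the range of the untreated ones. The log2 difference was -0.09 (SE 0.63, 95% interval -1.53 to 1.35, limma p = 0.886), with an exact permutation p of 0.971, and it turned to 0.48 without NAM-treated tumor 1. The interval includes the difference of -1.13 seen in AT3 tumors, and the M/D interval of D13Ertd608e includes its AT3 difference of -5.22. The AT3 differences of Abca12 (2.17), Rasgrp1 (2.82), Sox13 (1.79) and Gm5148 (-1.56) lie outside their M/D intervals. Since the AT3 differences chose the members, nothing is read from this. Ttc36 (Pearson r = 0.968) and Tspan1 (r = 0.966) were most like Cbr2 over the 8 M/D tumors.

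Gm5148 was at 458.1, 246.6, 396.5 and 139.2 in untreated and 132.4, 180.2, 277.1 and 248.7 in NAM-treated M/D tumors. The untreated group held the 2 highest values, but the groups overlapped. The log2 difference was -0.48 (SE 0.44, 95% interval -1.49 to 0.53, limma p = 0.309, exact permutation p = 0.343), in the direction of AT3 tumors and within the spread between tumors. Within experiment 1 it was -0.28.

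D13Ertd608e was at 34.3, 0, 17.3 and 28.2 in untreated and 0, 84, 0 and 0 in NAM-treated M/D tumors. Reads were thus present in 3 of 4 untreated tumors and in 1 of 4 treated tumors, which had the highest value of all. The log2 difference was -1.95 (SE 1.76, 95% interval -5.98 to 2.09, limma p = 0.3, exact permutation p = 0.486), and without NAM-treated tumor 2 it was -3.55 (limma p = 0.0277). Within experiment 1 it was -1.41. The means, 19.9 ± 15 and 21 ± 42 (SD, n = 4 each), differed by little, with edgeR and DESeq2 giving 0.01 and 0.08 on the log2 scale. The gene most like it was Cyp3a16 (Pearson r = 0.994 over 8 M/D tumors), itself at 0 in some tumors and at 80.4 in the highest.

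Compared with genes of the same length class in M/D tumors, Abca12 was above 0.217%, D13Ertd608e above 7.85%, Sox13 above 9.75%, Gm5148 above 22.1%, Cbr2 above 39.5% and Rasgrp1 above 54.3% of the genes. Of the 3 members that were higher in AT3 tumors, none was above the 95th percentile of its length class in M/D tumors. The difference between the models in the response to NAM was not tested for the members, since the AT3 contrast chose them.

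Of 11 neighbors of the members tested in AT3 tumors, 7 had the sign of their member. The calls among them were 3 (27.3%, beside 23.1% of all features): Bard1 beside Abca12 (log2 difference 1.08, SE 0.24), Atic on the other side of Abca12 (0.83, SE 0.27) and Snrpe beside Sox13, which was lower (-1.15) where Sox13 was higher. Fam98b, 8454 bases from Rasgrp1, was at 0.13, and Etnk2, 1983 bases from Sox13, at 0.78, neither of them called. Thbs1, beside Rasgrp1, was at 0.81 and B020031M17Rik, beside D13Ertd608e, at -1.08, both in the direction of their member and not called. Spry1 beside Gm5148 was at 0.57 and Zfp131 beside D13Ertd608e at 0.20. Beside Cbr2, Dcxr was at -0.41 and Rfng at 0.52. In M/D tumors Bard1 and Atic were at 0.17 and 0.31. All differences of neighbors are given without removal of the length trend, which in AT3 tumors was strong.

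Related genes and pathways were taken as 6 lists. In AT3 tumors 17 of 87 listed genes tested were called (19.5%), a share near the 23.1% of all features. This count was 9 without untreated AT3 tumor 1, 33 without untreated tumor 2, 11 without untreated tumor 3, 7 without NAM-treated tumor 2 and 3 without NAM-treated tumor 3, and no listed gene passed an adjusted p of 0.05, the adjusted p of the 17 genes being 0.166 to 0.203 (limma, Benjamini-Hochberg). In M/D tumors 8 of 98 were called (8.16%, beside 6.22% of all features), all at an adjusted p of 0.734 (limma).

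**Figure D5:**
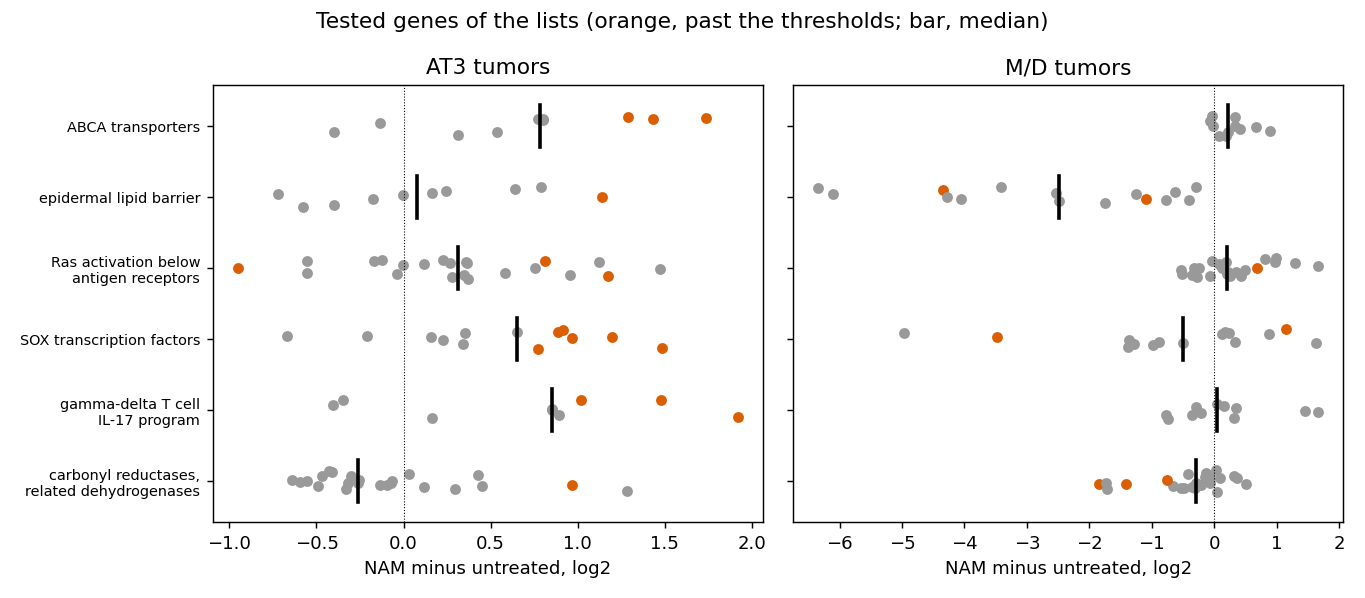
Log2 difference between NAM-treated and untreated tumors for each tested gene of the 6 lists, in AT3 tumors (left) and M/D tumors (right), with the called genes in orange and a bar at the median. Medians in AT3 tumors are 0.85 for the gamma-delta T cell program, 0.79 for ABCA and 0.65 for SOX genes (0.58, 0.22 and 0.31 with the length trend removed), and the epidermal lipid barrier to the left in M/D tumors (median -2.49).

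Of 10 other ABCA transporters tested in AT3 tumors, 3 rose and 0 fell, beside 12.2% and 10.9% of all features. They were Abca3 (log2 difference 1.74, SE 0.57), Abca9 (1.43, SE 0.41) and Abca1, which exports cholesterol (1.29, SE 0.44). The median was 0.785, beside -0.048 over all features, and was 0.22 with the length trend removed. Abca3 was then at 0.99, Abca9 at 0.925 and Abca1 at 0.49, the last under the fold threshold. Abca13 was under the filter. The epidermal lipid barrier, in which Abca12 acts, had 1 of 10 genes higher, beside 12.2% of all features. This was Tgm1, a transglutaminase that crosslinks the cornified envelope (1.14, SE 0.41), and the list median was 0.08.

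In M/D tumors the same barrier list had 2 of 15 genes lower and 0 higher, beside 3.19% and 3.03% of all features. Those lower were the ceramide synthase Cers3 (-4.35, SE 1.82) and the fatty acid elongase Elovl1 (-1.10, SE 0.43). The list median of -2.49, with all 15 genes below 0, went in the direction of Abca12 in these tumors. ABCA transporters had 0 of 11 called there, beside 6.22% of all features, with a median of 0.221.

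Among 22 genes of Ras activation below antigen receptors, 2 rose in AT3 tumors and 1 fell, beside 12.2% and 10.9% of all features. Those that rose were the Ras exchange factors Sos1 (1.18, SE 0.35) and Sos2 (0.82, SE 0.26). The gene that fell was Rasgrp2 (-0.95, SE 0.29), a paralog of Rasgrp1 found in platelets and lymphocytes. Rasgrp3 was at 0.75 (SE 0.33) and Rasgrp4 at 0.26 (SE 0.30), neither past the thresholds. With the length trend removed Sos1 was at 0.63, Sos2 at 0.38 and Rasgrp2 at -1.77, and the list median went from 0.311 to 0.041. Of 23 tested in M/D tumors 1 was called (beside 6.22% of all features), Dgkz, a kinase that removes diacylglycerol (0.69, SE 0.24).

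Of 13 SOX genes tested, 6 rose in AT3 tumors and 0 fell, beside 12.2% and 10.9% of all features. They included the closest paralogs of Sox13, Sox5 (log2 difference 1.20, SE 0.50) and Sox6 (0.91, SE 0.40), together with Sox10, a factor of glial and neural crest cells (1.48, SE 0.51), Sox12 (0.89, SE 0.34), Sox8 (0.97, SE 0.39) and Sox7 (0.77, SE 0.32). The median of 0.652 became 0.31 with the length trend removed. Sox5 was then at 0.60, Sox6 at 0.21, Sox7 at 0.65, Sox8 at 0.91, Sox10 at 1.40 and Sox12 at 0.37. Of these, Sox6 and Sox12 were under the fold threshold. Of 15 SOX genes tested in M/D tumors, Sox15, expressed in stratified epithelium, was lower (-3.48, SE 1.16) and Sox17, an endothelial factor, higher (1.15, SE 0.49). Over all features 3.19% were lower and 3.03% higher there.

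The gamma-delta T cell IL-17 program, in which Sox13 acts, had 3 of 9 genes higher in AT3 tumors, beside 12.2% of all features. They were Rora (1.48, SE 0.48), Il1r1 (1.02, SE 0.37) and 5830411N06Rik (1.92, SE 0.79). Rora and Il1r1 are also expressed outside T cells. The list median was 0.852, or 0.577 with the length trend removed, when these genes were at 0.88, 0.58 and 1.5. None of 11 was called in M/D tumors, beside 6.22% of all features.

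Of 23 carbonyl reductases and related dehydrogenases, none fell past the thresholds with Cbr2 in AT3 tumors, beside 10.9% of all features. Cbr1 was at -0.56 (SE 0.24, short of the fold threshold), Cbr3 at -0.43 (SE 0.30) and Dcxr at -0.41, with a list median of -0.259 that became 0.107 with the length trend removed. Hsd17b7, of cholesterol synthesis, was the 1 gene that rose (0.97, SE 0.38), beside 12.2% of all features. Of 23 tested in M/D tumors 3 fell, beside 3.19% of all features. These were Cbr3 (-1.85, SE 0.55), Rdh10 (-1.41, SE 0.47) and Rdh11 (-0.76, SE 0.22), while Cbr2 itself was at -0.09.

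Markers of cells in which Cbr2 is known were mixed in AT3 tumors. Of 3 club cell markers tested 2 fell, beside 10.9% of all features. They were Scgb3a2 (log2 difference -2.88, SE 0.69) and Scgb3a1 (-1.33, SE 0.53), while Cyp2f2 was at 1.72 (SE 0.92) and not called. With the length trend removed these were at -1.89, -0.55 and 2.02. Scgb1a1, the defining marker, was at 0 in all AT3 tumors. The summed level of the list was 69.6 to 104.6 in untreated and 40.5 to 68 in NAM-treated AT3 tumors, far below that of Cbr2. Of 15 resident macrophage markers 3 rose (Mrc1, Cd163 and F13a1) and 3 fell (Ccl8, Fcna and Pf4), beside 12.2% and 10.9% of all features. The median was 0.048, with sums of 14550 to 25620 in untreated and 13110 to 17360 in NAM-treated tumors. Mrc1 was at 0.45, Cd163 at 0.71, F13a1 at 0.62, Ccl8 at -0.32, Fcna at -0.54 and Pf4 at 0.09 with the length trend removed. Only Cd163 and F13a1 were then past the fold threshold, and the list median was 0.096. The part of either cell type in the Cbr2 difference was not tested.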

How the data were processed

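Bulk RNA-seq libraries of 4 untreated and 4 NAM-treated M/D tumors and of 3 untreated and 3 NAM-treated AT3 tumors were used, grouped by the sample labels. The deposited values are a normalized signal per gene: the authors mapped paired-end reads with STAR 2.4.0 on mm10, counted reads on constitutive regions of the genes of Mouse FAST DB, and divided counts by DESeq2 size factors. Of 56414 features, 19524 were at 0 in all 14 tumors, and 0 value columns were left unmapped. Values were whole multiples of 1 step per tumor (tolerance 0.05), which gave back 100% of values as whole reads. The median ratio of a tumor to its own model was 0.975 to 1.023, against 0.837 to 1.17 over both models, so models were compared apart.

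The 6 members and all gene lists were chosen with earlier results of these data known. Models were fitted in limma 3.58.1 (R 4.3.3, eBayes with a trend) to log2(normalized count + 1), where at least 1 group had a mean of 10 or more, with Benjamini-Hochberg adjustment over all features tested. The thresholds (p of at most 0.05, unadjusted, and a fold of at least 1.5) follow the study's methods, which do not state whether p was adjusted, although its legends for these data speak of adjusted p-values. Single members were compared in M/D tumors by exact two-sided permutation tests. Named genes were the members, the 2 genes most correlated with each over the 8 M/D tumors, their nearest tested neighbors, called genes of 6 pathway lists (at most 4 per list in AT3 tumors, by p) and close paralogs. Called genes of the lists in M/D tumors and called cell type markers were named after their values were seen.

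The length and GC content of a gene are those of its longest transcript in GENCODE M21 (GRCm38), found for 85.2% of features tested in AT3 and 85.1% in M/D tumors. Trends were removed by a spline with 4 degrees of freedom. Near-identical copies were sought with BLAST 2.17.0, and promoters were RefSeq's (GRCm38.p6). Alternatives included edgeR 4.0.16 and DESeq2 1.42.0 on recovered reads (1637 and 2095 genes called in M/D, 4659 and 5049 in AT3 tumors). The labels do not say whether replicate numbers pair the tumors, and the main fits did not pair them.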

Additional observations from a re-analysis of the deposited data

Results flagged for a closer look

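Of 12 combinations of a member and a group, 2 of the M/D groups of 4 tumors held a tumor far from the other 3, by Dixon's criterion at the 95% level. Chance meets it in about 1 group in 20 where values are normally distributed. Here it was applied to normalized counts and not to their log2 values, so that this rate need not hold and the flags are descriptions. Both flagged groups concerned NAM-treated M/D tumor 2. Its Abca12 value of 546.8 normalized counts stood apart from 0, 29.5 and 9.63 in the other treated tumors (gap over range 0.946). Its D13Ertd608e value of 84 stood apart from 0 in the 3 other treated tumors (gap over range 1, as in any group with a single tumor above 0). This tumor also had the highest sum of skin keratinocyte markers of the treated M/D tumors (657300). AT3 groups of 3 tumors were too small for this criterion.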

How the results depend on the processing

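The count of genes called in M/D tumors (1350) was 2180 with no filter on low values, 859 with a group mean of at least 50, 2225 with all 14 tumors in 1 fit, 2095 with DESeq2, 1 at an adjusted p of at most 0.05, and 784 to 2712 with a tumor left out (without untreated tumor 4 and without NAM-treated tumor 2). In AT3 tumors the count (4458) was 2625 with the length and GC trend removed, 1 at an adjusted p of at most 0.05, and 1618 to 6765 with a tumor left out (without NAM-treated tumor 3 and without untreated tumor 2). Of the members, 1 was called in M/D tumors, 0 by edgeR, 0 at an adjusted p of at most 0.05, and 1 to 2 with a tumor left out (2 without NAM-treated tumor 2). The 17 listed genes called in AT3 tumors were 7 with all 14 tumors in 1 fit, 0 at an adjusted p of at most 0.05, and 3 to 33 with a tumor left out. Upper-quartile rescaling took the share of higher calls from 48.7% to 61.7% in M/D tumors, with edgeR at 60.6% and DESeq2 at 61.4%. It took this share from 52.9% (2358 of 4458) to 44.6% (2020 higher against 2506 lower) in AT3 tumors, so that lower calls outnumbered higher ones there, and moved the median of all features to 0.10 in M/D and to -0.12 in AT3 tumors.

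In M/D tumors the sign of Rasgrp1 turned to 0.0857 with upper-quartile rescaling, 0.57 with edgeR and 0.60 with DESeq2 (-0.69 to 0.66 with a tumor left out), that of Cbr2 to 3e-04 with upper-quartile rescaling (-0.35 to 0.48 with a tumor left out), and that of D13Ertd608e to 0.0123 with edgeR and 0.0785 with DESeq2. The cause was not tested. Abca12 was -3.78 by edgeR, no longer called, and kept its call at the unadjusted threshold in the other 18 alternatives. Abca12, Sox13 and Cbr2 in AT3 tumors moved by more than 1 SD only with the length trend removed, and Rasgrp1 and Gm5148 did not. The fitted value of D13Ertd608e in AT3 tumors ranged from -8.26 (edgeR) to -3.05 (pseudocount 5). The deviations of tumors with the same replicate number had correlations of -0.444 to 0.11 in M/D and -0.16 to 0.256 in AT3 tumors. Those with different numbers had -0.217 to 0.389 and -0.317 to 0.281. A replicate block gave 1001 calls in M/D and 5082 in AT3 tumors, with 1 member called in M/D tumors. Depth limits Rasgrp1 in untreated AT3 tumors, with 6 to 20 reads, and D13Ertd608e, with at most 69.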

Other observations

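Over the 8 M/D tumors, the members did not move as a group. The highest Pearson r between 2 members was 0.809, between Abca12 and D13Ertd608e, and the lowest -0.625, between Rasgrp1 and Cbr2. Rasgrp1 had a negative coefficient with each of the other 5 members. These are descriptions over 8 tumors of 2 conditions, without a test.

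The genes most like the remaining members over M/D tumors were Gabpb2 (r = 0.97) and Fkbp15 (0.96) for Rasgrp1, Plod3 // Mir702 (0.98) and Btbd17 (0.974) for Sox13, and Sppl2b (0.953) and Crnde (0.943) for Gm5148. Over the 6 AT3 tumors Gabpb2 stayed close to Rasgrp1 (0.826) and Crnde to Gm5148 (0.793), whereas Sppl2b had -0.691 with Gm5148 and Btbd17 -0.28 with Sox13.

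In AT3 tumors, 5 of 8 endothelial markers rose with NAM and 1 fell, beside 12.2% and 10.9% of all features. Among those that rose were Kdr (log2 difference 1.54, SE 0.51), Cdh5 (1.39, SE 0.41) and Tek (1.05, SE 0.30), with Egfl7 lower (-0.67, SE 0.30). With the length trend removed Kdr was at 0.92, Cdh5 at 1.06, Tek at 0.69, Pecam1 at 0.56, Tie1 at 0.29 and Egfl7 at -0.41, of which Pecam1, Tie1 and Egfl7 were under the fold threshold.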
